A study of Mus musculus with 8 samples.

Results

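Genes of the exit from meiotic prophase were examined for open chromatin in mouse pachytene spermatocytes, in which chromatin accessibility was measured by ATAC-seq (a transposase cuts accessible DNA and leaves sequencing adapters there). The 10 genes are the cyclins *Ccna1*, *Ccnb1* and *Ccnb2*, the cyclin-dependent kinases *Cdk1* and *Cdk2*, the chaperone *Hspa2*, the phosphatase *Cdc25c*, and the kinases *Plk1*, *Aurkb* and *Aurkc*. They were taken by name for their part in the passage from pachynema to metaphase I, and not from measured values, out of 21938 protein-coding genes of the annotation. Earlier results of these data were known when the genes were chosen.

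The study compared 2 genotypes with 4 libraries each. The libraries were made from Sta-Put (sedimentation) purified pachytene spermatocytes of adult males, with the testes of several males pooled. The floxed *Arid1a* line was on a CD1 background and was crossed with *Stra8-Cre* mice, whose strain background the study did not state. *Arid1a* WT males carried floxed *Arid1a* alleles (*Arid1a* fl/fl or *Arid1a* fl/+). *Arid1a* cKO males were *Arid1a* fl/fl; *Stra8-Cre* Tg/0, so that Cre recombinase, made from spermatogonia onwards under the *Stra8* promoter, removes part of the gene for a subunit of the BAF (SWI/SNF) chromatin remodeler. By the study's own account some spermatocytes escaped the deletion, and the cKO libraries therefore held cells with and without ARID1A. The purified fractions were enriched for pachytene cells and not pure. In the study's counts of spermatocytes from juvenile males, the mid-pachytene share was larger and the diplotene share smaller in cKO than in floxed controls. Whether the libraries of the 2 genotypes were matched for stage was not tested.

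Spermatocytes leave prophase when CDK1 bound to a B-type cyclin becomes active. The CDC25 phosphatases remove the inhibitory phosphates from CDK1, HSPA2 is the testis-enriched HSP70 needed for CDK1 to join cyclin B1, and cyclin A1, which pairs with both kinases, is the A-type cyclin that male meiosis cannot do without. PLK1 and the aurora kinases then act in removal of the synaptonemal complex, spindle assembly and correction of kinetochore attachment. CDK2 also sits at telomeres and crossover sites during prophase.

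Each genotype was represented by 1 deposited list of peaks. From its rows and the study's methods, all values of a peak were taken to come from 1 library, which was not named. Each row was taken as the stretch that the peak shared with a peak of another library of the same genotype. A peak on 3 rows was typically one that overlapped a peak in each of the 3 other libraries, although a library with several peaks there adds a row for each. Rows of the same name were joined into 1 peak, which gave 19309 peaks from 52419 rows in WT and 30244 peaks from 84006 rows in cKO. Per base, 4.33 fragments were the background of WT and 5.11 that of cKO. A summit is the most covered base of a peak, and the lowest had 13 fragments in WT and 14 in cKO. Levels are given as summit fragments over this background, with 95% exact Poisson intervals that cover counting error only. With 1 list a genotype there was no spread between replicates and no test, so every difference below compares 2 libraries, not the genotypes. Start peaks (peaks over the main start, that of the principal transcript) were listed for 10 of 10 spermatocyte marker genes in both genotypes. They were listed for 2 of 6 round spermatid markers in both (*Tnp2* and *Spaca1*). Of Sertoli cell markers, 1 of 6 had one in WT (*Gata4*) and 3 of 6 in cKO (*Amh*, *Wt1* and *Cldn11*). The cKO peaks at *Wt1* and *Cldn11* met no WT peak and had 19 and 23 summit fragments. In either genotype, 0 of 6 spermatogonial, 0 of 5 Leydig cell and 0 of 4 macrophage markers had one. Of all protein-coding genes, 43.1% had a start peak in WT and 50.1% in cKO.

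Upstream sequence is printed here for 5 of the genes, those with a long enough stretch before any annotated start and outside annotated untranslated sequence. *Ccna1*, *Cdk2* and *Hspa2* were left out by that rule. Of the 5, 4 promoters hold cell-cycle elements under a peak of both lists, and *Aurkc* had no WT peak. Promoter windows from RefSeq (build GRCm38.p6, the assembly of mm10) covered 250 bases before and 50 after the RefSeq start and matched 8 of the 10 genes. *Aurkb* and *Cdc25c* were not matched. The RefSeq start was not the same base as the main start of the principal transcript. The whole *Ccna1* window lay inside the gene, after its main start (RefSeq start chr3:55055055, main start chr3:55055501). At *Hspa2* the RefSeq start was chr12:76404370 and the main start chr12:76404176. Each line below gives the coding strand 5′ to 3′, cut where the first annotated transcript begins. The *Ccnb1* line therefore lacks its CCAAT at -67 and its TTTAAA at -42, counted from the RefSeq start. The *Cdk1* line likewise lacks its TTTGAA at -15, and the TTTGAA in capitals there is that at -71. Capitals mark CCAAT or its reverse complement ATTGG, the box bound by NF-Y, and TTTGAA or TTTAAA, forms of the CHR element of late cell-cycle genes.
Ccnb1 chr13:100786571-100786736 (minus strand): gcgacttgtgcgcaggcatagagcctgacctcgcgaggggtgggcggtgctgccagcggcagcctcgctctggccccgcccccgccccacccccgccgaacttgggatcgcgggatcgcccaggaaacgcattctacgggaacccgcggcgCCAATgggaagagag
Ccnb2 chr9:70421555-70421804 (minus strand): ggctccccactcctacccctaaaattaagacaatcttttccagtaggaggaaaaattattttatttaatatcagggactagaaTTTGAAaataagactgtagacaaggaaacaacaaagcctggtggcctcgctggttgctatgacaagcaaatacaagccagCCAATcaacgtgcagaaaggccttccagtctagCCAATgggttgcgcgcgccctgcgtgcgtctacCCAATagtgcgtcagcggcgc
Cdk1 chr10:69352939-69353162 (minus strand): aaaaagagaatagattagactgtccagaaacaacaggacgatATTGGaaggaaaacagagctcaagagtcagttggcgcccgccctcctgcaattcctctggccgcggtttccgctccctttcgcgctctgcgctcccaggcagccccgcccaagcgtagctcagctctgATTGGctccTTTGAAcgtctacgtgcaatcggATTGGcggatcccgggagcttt
Plk1 chr7:122159185-122159434 (plus strand): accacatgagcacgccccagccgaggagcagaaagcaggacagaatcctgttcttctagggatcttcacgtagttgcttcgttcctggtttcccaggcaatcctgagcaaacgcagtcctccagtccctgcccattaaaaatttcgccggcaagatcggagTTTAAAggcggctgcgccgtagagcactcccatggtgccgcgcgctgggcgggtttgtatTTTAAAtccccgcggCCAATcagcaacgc
Aurkc chr7:6995135-6995299 (plus strand): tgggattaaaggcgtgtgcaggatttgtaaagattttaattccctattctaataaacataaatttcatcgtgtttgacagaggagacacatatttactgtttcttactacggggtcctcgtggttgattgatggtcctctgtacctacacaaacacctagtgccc
The first 4 stretches lay whole within the WT peak of their gene and within the cKO peak, whereas the *Aurkc* stretch ended before the only peak listed there.

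In the whole 300 bp windows, searched on both strands, *Ccnb1*, *Ccnb2*, *Cdk1* and *Plk1* each held CCAAT together with TTTGAA or TTTAAA. That combination was in 4 of the 8 windows, beside 10.7% of all 32851 windows. CCAAT alone was in 8 of 8 (37.4% of all windows), with 3 matches in *Ccnb2* at -87, -54 and -21 counted from the RefSeq start, an even spacing. Its match in *Aurkc* was only after the RefSeq start, at 25. The matches in *Ccna1* (-107) and *Hspa2* (-29) lay before the RefSeq start but after the main start of their gene. TTTGAA was in 3 windows (17.9% of all) and TTTAAA, which reads the same on both strands, in 2 (13.2%). The nearest of these lay at -42 in *Ccnb1*, -15 in *Cdk1* and -29 in *Plk1*, and at 5 in *Ccnb2*.

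Other elements were searched in the same windows. AACNG, the short core bound by MYB proteins, was in 7 windows but also in 80.3% of all. TGACG, the core of the cAMP response element that CREM binds in the testis, was in *Ccnb2*, *Cdk2* and *Hspa2* (20.8% of all), and the full TGACGTCA, which contains it, was in 0 of the 8 (1.79% of all). Of the E2F forms, TTTCGCGC was in *Cdk1* only (0.323% of all) and TTTGGCGC was in 0 (0.514% of all). A match of letters shows no binding. Base composition separated *Aurkc* further: it had 6 CpG dinucleotides in its window and an observed over expected CpG ratio of 0.381, close to the median of 0.384 over all windows, while the other 7 had 19 to 35 CpG and ratios from 0.664 in *Hspa2* to 1.0 in *Plk1*.

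A WT peak was listed in the body or 1000 bp upstream of 9 of the 10 genes, and a cKO peak at 10 of 10. Of all protein-coding genes, 55.4% had a WT peak and 63.7% a cKO peak in the same window. The main start was covered in WT at 9 of the genes, beside 43.1% of all, and in cKO at 10, beside 50.1% of all. In number of peaks there were 9 in WT and 12 in cKO. All 9 WT peaks overlapped a cKO peak, so 0 were lost (2.2% of all genes had a lost peak), and 3 cKO peaks met no WT peak and are called gained, 1 each at *Cdk1*, *Cdk2* and *Aurkc*. A gained peak was listed at 23.6% of all genes, and 3 of 10 is near that share.

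**Figure D1:**
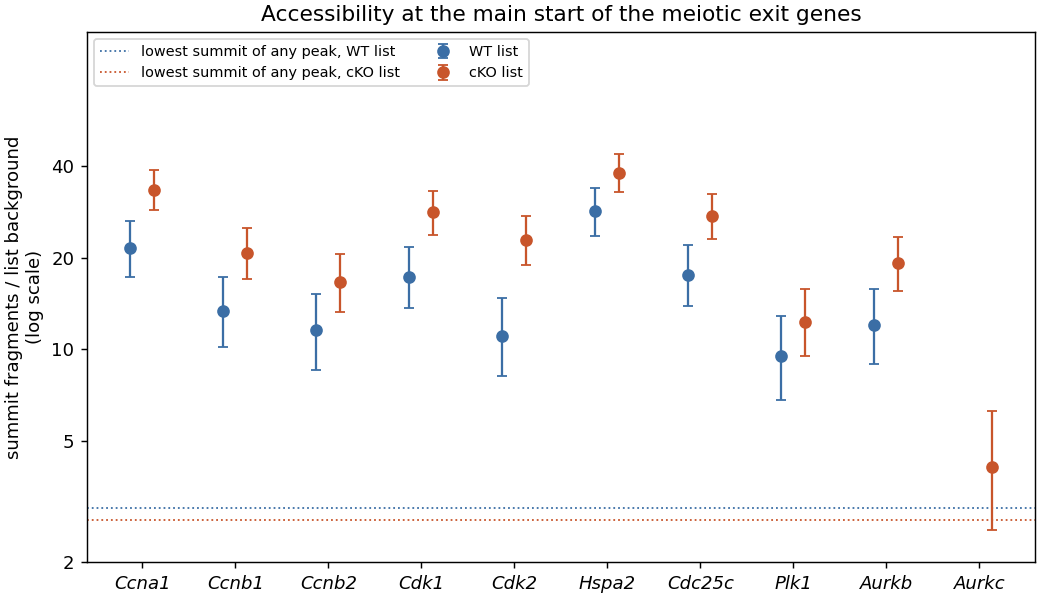
Level of the peak over the main start of each gene (summit fragments over list background, log scale) in the WT list (blue) and the cKO list (orange), with 95% exact Poisson intervals and, dotted, the lowest summit of any peak in each list. Levels run from 9.47 to 28.4 in WT and from 12.3 to 38.0 in cKO at the 9 genes with a peak in both, and *Aurkc* has only a cKO value, 4.11.

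The 9 WT peaks were among the stronger ones of their list, from the 69.4th percentile of fold enrichment (*Plk1*) to the 99.4th (*Hspa2*), and their cKO partners lay from the 76.8th to the 98.8th. *Hspa2* was highest and *Ccna1* next in both lists, and *Plk1* lowest. The middle of the order was tight: of the 8 neighbouring steps in WT, only that from *Hspa2* to *Ccna1* was larger than its counting interval (ratio 1.32, interval 1.002 to 1.751), and in cKO 0 of the 8 were. For comparison, the median start peak stood at 10.6 times background in WT and 16.4 in cKO.

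The cyclin genes had 1 peak each in both lists, over the start. *Ccna1* (ENSMUSG00000027793, chr3:55045469-55055501, minus strand) had a WT peak at chr3:55054241-55055912, 1672 bp on 3 rows with a deposited fold enrichment of 17.6 and 93 summit fragments, which is 21.5 times background. The cKO peak at chr3:55053930-55056426 was 2497 bp on 3 rows, with fold enrichment 28.1 and 171 fragments, 33.5 times background. The cKO level was thus 1.56 times the WT level (95% exact counting interval 1.20 to 2.03), the peak was longer on both sides, and it held the first exons, their coding part, and the start of the neighbouring 4931419H13Rik, so the signal cannot be given to 1 of the genes.

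*Ccnb1*, the main activating partner of CDK1, had its WT peak at chr13:100785858-100787512, 1655 bp on 3 rows, with fold enrichment 11.1 and 58 fragments (13.4 times background). In cKO the peak at chr13:100785834-100787826 was 1993 bp on 3 rows, with fold enrichment 17.5 and 106 fragments (20.7 times background). The ratio was 1.55 (1.11 to 2.17). The WT rows were uneven, from 900 to 1655 bp, so some of the other WT libraries shared only part of it, while the cKO rows were nearly equal at 1926 to 1993 bp.

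*Ccnb2*, the second B-type cyclin, had the largest width ratio of the cyclins, although the difference in bp was larger at *Ccna1* (825 bp against 775 bp). Its WT peak at chr9:70421047-70422052 was 1006 bp on 3 rows with fold enrichment 9.57 and 50 fragments (11.5 times background), and the cKO peak at chr9:70420989-70422769 was 1781 bp on 3 rows with fold enrichment 14.1 and 85 fragments (16.6 times background). The summit ratio of 1.44 (1.004 to 2.086) was the smallest of the 3 cyclins, and the width ratio was 1.77. Most of the added length lay upstream: relative to the start, the peak began at -505 bp in WT and at -1222 bp in cKO.

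Of the 9 genes with a peak in both lists, *Cdk1* had the shortest WT start peak and *Cdk2* the largest ratio. The *Cdk1* WT peak at chr10:69352279-69353261 was 983 bp on 3 rows of 907 to 983 bp, with fold enrichment 14.3 and 75 fragments (17.3 times background). Its cKO partner at chr10:69351952-69353367 was 1416 bp on 3 rows, with fold enrichment 23.7 and 144 fragments (28.2 times background), a ratio of 1.63 (1.22 to 2.18). Both peaks covered the noncoding first exon and stopped before any coding exon.

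*Cdk2* (chr10:128697939-128705031, minus strand) had a WT peak at chr10:128703858-128705713, 1856 bp on 3 rows, with fold enrichment 9.19 and 48 fragments (11.1 times background). The cKO peak at chr10:128703417-128705679 was 2263 bp on 3 rows, with fold enrichment 19.3 and 117 fragments (22.9 times background). The ratio was 2.07 (1.46 to 2.95). Its lower bound, 1.464, was the only one of the 9 above the median over all 18391 shared WT peaks, 1.459, and by a margin that vanished when both lists were limited to −log10 q of at least 5 (median 1.48). The same bound lay below 1.54, the median of shared peaks over protein-coding starts. The deposited summit was 346 bp after the main start in WT and 15 bp before it in cKO, although the offset is counted from a peak edge that the list may have trimmed. The peak also held the start of *Pmel*, a pigment cell gene, and the part of each gene in the signal cannot be told apart.

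*Hspa2* (chr12:76404176-76406938, plus strand) stood out in extent. Its WT peak at chr12:76403136-76406409 was 3274 bp, with fold enrichment 23.3 and 123 fragments, 28.4 times background, the highest level of the 10 genes. It filled 4 rows, 3 of 2662 to 3274 bp and a short one of 274 bp. In cKO the peak at chr12:76402991-76409254 was 6264 bp on 3 identical rows, from -1185 to 5078 bp relative to the start, and so ran over the whole gene and past its 3′ end; it also covered a further WT peak beyond the gene. A cKO start peak that covers more than 1 WT peak was seen at 5.19% of the genes with a start peak in both lists, and here at 1 of 9. The summit had fold enrichment 31.9 and 194 fragments (38.0 times background), at the same base in both lists, and its ratio of 1.34 (1.06 to 1.69) was among the lower ones. The start of 4930426I24Rik lay in both peaks.

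*Cdc25c*, the phosphatase gene, had the most even peak. In WT it spanned chr18:34750909-34752210, 1302 bp on 3 rows of 1292 to 1302 bp, with fold enrichment 14.4 and 76 fragments (17.5 times background). In cKO it spanned chr18:34750839-34752453, 1615 bp on 3 identical rows, with fold enrichment 23.1 and 140 fragments (27.4 times background). The ratio was 1.56 (1.17 to 2.09), and the start of 2010110K18Rik was inside both peaks.

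*Plk1*, the polo-like kinase gene, was the weakest of the 9 shared peaks. The WT peak at chr7:122158959-122160476 was 1518 bp on 3 rows that ranged from 836 to 1518 bp, with fold enrichment 7.88 and 41 fragments (9.47 times background). The cKO peak at chr7:122158318-122160413 was 2096 bp on 3 rows, with fold enrichment 10.5 and 63 fragments (12.3 times background). The ratio of 1.30 had an interval from 0.865 to 1.98 and was the only one of the 9 that held 1, and no difference was detectable at this depth. The start of Gm15489 lay in both peaks.

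*Aurkb*, the kinase of the chromosomal passenger complex, was the only gene whose peak was not longer in cKO. The WT peak at chr11:69045383-69046837 was 1455 bp on 3 rows of 1240 to 1455 bp, with fold enrichment 9.94 and 52 fragments (12.01 times background). The cKO peak at chr11:69045331-69046709 was 1379 bp on 3 identical rows, with fold enrichment 16.2 and 98 fragments (19.2 times background). Its summit ratio of 1.60 (1.13 to 2.28) was nevertheless the third highest. The difference in length rested on the WT row of 1455 bp, since the other WT rows, of 1305 and 1240 bp, were shorter than every cKO row.

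**Figure D2:**
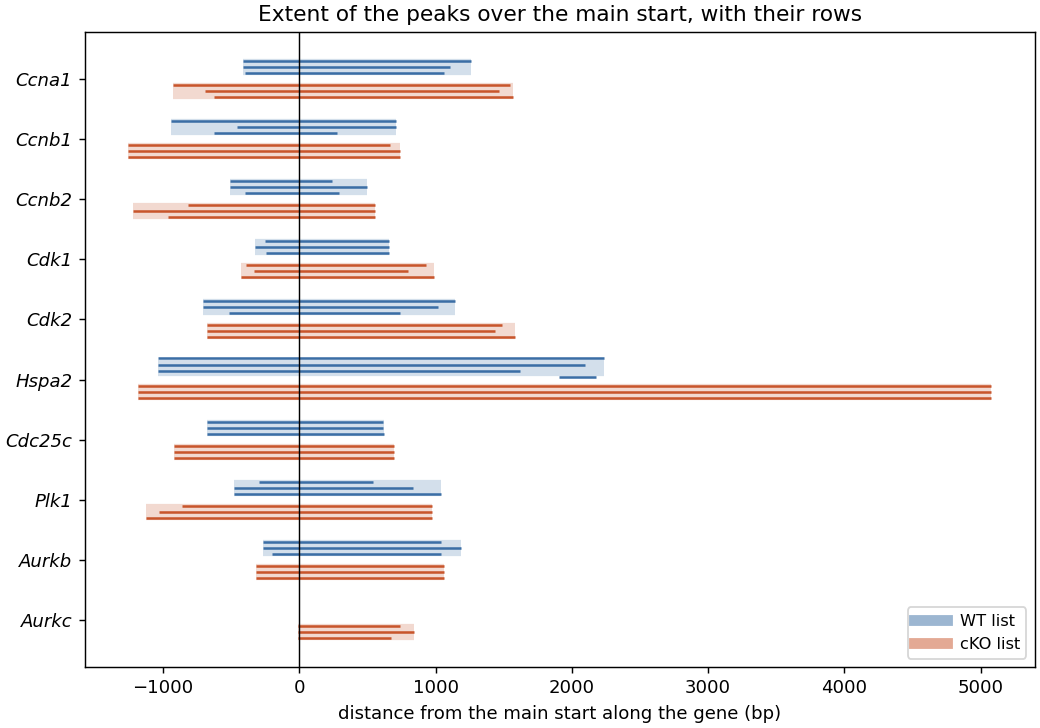
Extent of each peak over a main start, as distance along the gene from that start in bp (shaded bar), with its rows as lines, for the WT list (blue) and the cKO list (orange). The *Hspa2* cKO peak reaches 5078 bp past the start, *Aurkb* is the only shared peak that is not longer in cKO, and the *Aurkc* cKO peak begins 12 bp before the start; the gained peaks inside *Cdk1* and *Cdk2* are not drawn.

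*Aurkc*, the germ-cell paralog of *Aurkb*, was the only gene of the 10 without a WT peak (chr7:6995300-7003091, plus strand). Its cKO peak at chr7:6995371-6996221 was 851 bp on 3 rows of 686 to 851 bp, with fold enrichment 3.60, 21 fragments (4.11 times background, interval 2.54 to 6.28) and −log10 q 5.44. It began 12 bp before the main start and reached 838 bp after it, over first exons and coding sequence. Of the 12488 protein-coding genes with no WT peak over the main start, 7.81% had that start under a gained cKO peak. In this peak 81.8% of sampled 50-mers were unique in the genome, the lowest share among the peaks described here.

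The other gained peaks lay inside the kinase genes and were on fewer rows. That in *Cdk1*, chr10:69335541-69336006, was 466 bp on 1 row, 16932 to 17397 bp after the start and over the 3′ untranslated exon, with the same fold enrichment of 3.60, 21 fragments and −log10 q of 5.44 as the *Aurkc* peak and 100% unique 50-mers. That in *Cdk2*, chr10:128699750-128700012, was 263 bp on 2 rows over a coding exon, with fold enrichment 2.78, 16 fragments and −log10 q 2.63. The median gained peak of the list had a fold enrichment of 3.44, and 57.5% of gained peaks were on 3 or more rows.

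These 3 summits lay near the lowest ones of the WT list. Scaled to the WT background their summits corresponded to 17.8 fragments at *Cdk1* and *Aurkc* and 13.6 at *Cdk2*, and after division by the median ratio of shared peaks to 12.2 and 9.29, whereas the lowest WT peak had 13. When the cKO list was cut to the 19309 peaks of lowest q, 0 of the 3 remained, and *Aurkc* then had a peak in neither list; only that of *Aurkc* was on 3 rows.

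At the 9 shared peaks the cKO to WT summit ratio was above 1 in 9, as it was at 90.3% of all shared WT peaks and 97.9% of those over protein-coding starts. The interval lay above 1 in 8 of the 9, beside 42.0% of all shared peaks and 61.1% of those over starts; the interval narrows with the number of fragments, and these peaks were among the stronger ones. It was at least 1.5 in 6 of the 9 and at most 1/1.5 in 0. Over all shared WT peaks 45.2% reached 1.5 and 0.511% were at or below its inverse, and over the 8369 shared peaks at protein-coding starts 55.6% reached it. The median was 1.56 for the 9 genes, 1.46 for all shared peaks and 1.54 for those at starts. Measured from the median of all shared peaks, 6 genes were above and 3 below (*Ccnb2*, *Hspa2* and *Plk1*), and the interval of 8 of the 9 held it, all but *Cdk2*. The median of shared peaks at starts, 1.54, lay within the interval of each of the 9, *Cdk2* included.

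**Figure D3:**
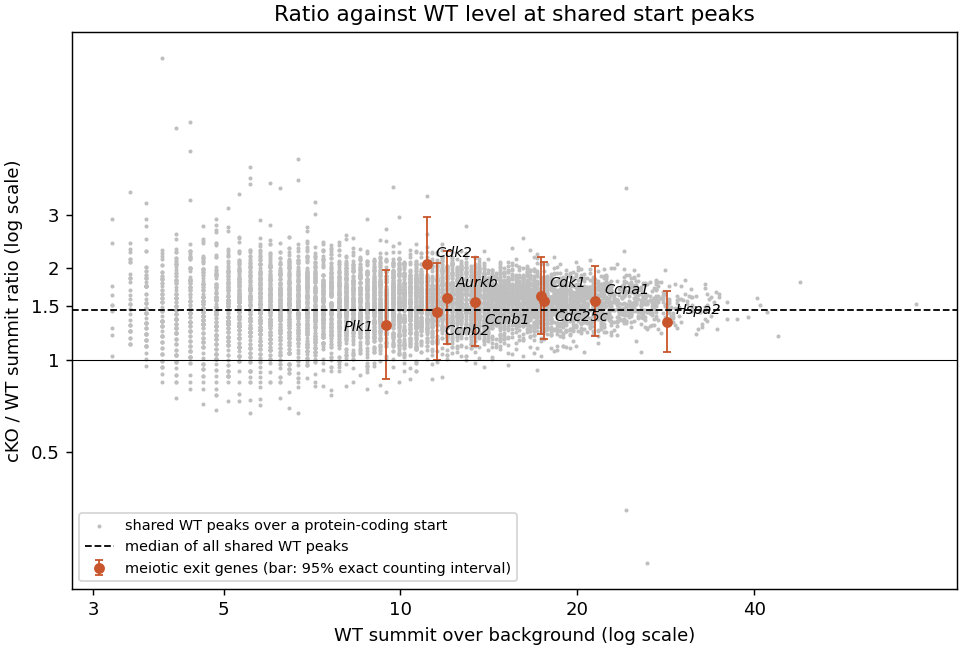
cKO to WT summit ratio against WT level, both on log scales, for shared peaks over protein-coding starts (grey) and for the 9 genes (orange, with 95% exact counting intervals). The dashed line is the median of all shared WT peaks, 1.46, and only the interval of *Cdk2*, from 1.464 up, lies above it, narrowly. The median of shared peaks over protein-coding starts, 1.54 (not drawn), lies inside the *Cdk2* interval.

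The cKO peak was longer than the WT peak at 8 of the 9 genes, and at the same 8 every cKO row was longer than every WT row, beside 83.0% of all shared peaks. The width ratio reached 1.5 at 2 of the 9, *Hspa2* (1.91) and *Ccnb2* (1.77), beside 54.3% of all. The median width ratio was 1.38 for the 9 genes, 1.57 for all shared peaks and 1.43 for those at starts.

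A fixed list of 56 other cell-cycle genes, 5 groups in all, gave the setting. A start peak was listed in WT for 50 and in cKO for 52 of them, beside 43.1% and 50.1% of all protein-coding genes. Of the 56, 0 had a lost peak (2.2% of all genes) and 11 a gained one (19.64%, near the 23.6% of all genes). All 11 mitotic kinase and passenger complex genes had a start peak in both lists. So did all 5 of the PP2A-Greatwall arm, which joins subunits of the phosphatase that opposes CDK1 with the factors that hold it off. No start peak was listed in either for *Wee2*, the oocyte CDK1-inhibiting kinase, *Ccnb3*, the X-linked cyclin B3, *Anapc11*, a subunit of the anaphase-promoting complex, and *Mos*, the kinase upstream of MAPK in oocytes. The start of *Cdc25b*, a phosphatase related to *Cdc25c*, was under a gained cKO peak of 24 fragments, 4.70 times background.

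Of the 50 with a start peak in both lists, 49 had a ratio above 1, beside the 97.9% of all shared start peaks. At least 1.5 was reached by 31, which is 62% beside 55.6% of shared start peaks, and 0 had at most 1/1.5. The exception to a ratio above 1, named after its value was seen, was *Mnat1*, an assembly factor of the CDK-activating kinase, with 23 fragments in both lists (ratio 0.847, 0.454 to 1.58). Their median of 1.57 was close to the 1.56 of the 9 shared peaks. The largest ratio was at *Ccne1*, cyclin E1 and a partner of CDK2, with 53 fragments in WT and 142 in cKO (2.27, interval 1.65 to 3.17). The next were *Cdc23*, of the anaphase-promoting complex (2.06), *Sgo1*, a protector of centromeric cohesin (2.01), and the spindle checkpoint genes *Mad2l1* (1.98) and *Ttk* (1.86).

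**Figure D4:**
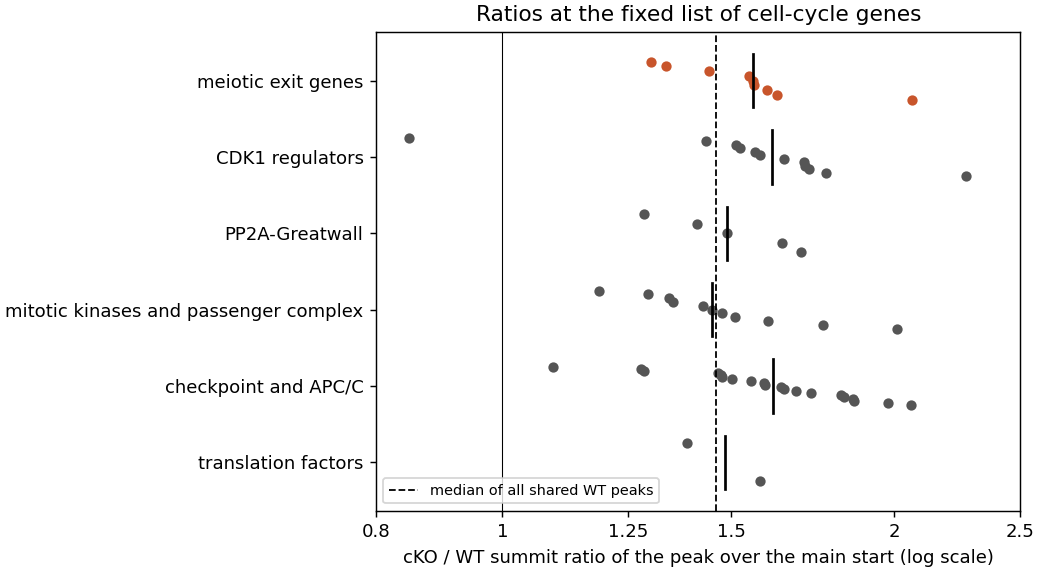
cKO to WT summit ratio (log scale) of the peak over the main start, for the 9 meiotic exit genes (orange) and the 50 genes of the fixed list (grey) by group, with each group's median as a bar and the median of all shared WT peaks, 1.46, dashed. All points but *Mnat1*, at 0.847, lie above 1.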

How the data were processed

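Per the labels and the study's methods, the authors trimmed reads with Trim Galore, aligned them to mm10 with Bowtie2, removed duplicates with Picard and mitochondrial reads with SAMtools, called peaks per library with MACS2 without a local background, and intersected the replicates into 1 list per genotype; no mapping quality filter was stated. The deposited fold enrichment is a ratio, summit fragments plus 1 over background plus 1. The deposited −log10 q rates that excess by a Poisson model, and the deposited score column repeats it. The deposited summit offset was also used.

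Columns were read in Python 3.11.15 with pandas 2.3.3 and scipy 1.17.1. Whole fragments and the list background were recovered from the grid of fold values, a step tested on simulated data; the recovered fragments lay within 0.00027 (WT) and 0.00032 (cKO) of a whole number. The backgrounds are the only depth the lists give, and that of the other 3 libraries a genotype is unknown. Each WT peak was paired with the cKO peak of largest overlap (at least 1 bp). The summit ratio is (cKO fragments/cKO background)/(WT fragments/WT background), with 95% Clopper-Pearson intervals of the cKO share. Genes were those of GENCODE vM21, and uniqueness used 50-mers every 25 bp. Intervals cover counting error only. Members and lists were chosen with earlier results of these data known. Named were the 10 genes and, of the fixed list, those with a gained start peak, no start peak, or the 5 past 1.5 furthest from the median. Alternatives were stricter q, 3 or more rows, equal list lengths, other windows, overlap rules, partners and scales.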

Additional observations from a re-analysis of the deposited data

How the results depend on the processing

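No paired analysis was possible because each genotype has 1 list and no result comes from a test; for the same reason no replicate could be left out. Across the 12 planned settings, each run where it applied, the start peaks, the 9 common peaks, the 0 lost peaks and the median width ratio of the 10 genes kept within the limits set (1.5 times for a count, 10 percent for a median). The 3 gained peaks did not: 0 were left at −log10 q of at least 10 and 0 at equal list lengths, and 1 on 3 or more rows. Centring on the median of all shared peaks, which divides every ratio by 1.46, gave a median of 1.07 for the genes, with 0 of 9 at 1.5 or more, and turned *Hspa2* (0.916), *Plk1* (0.892) and *Ccnb2* (0.987) below 1. Counting rows in place of peaks gave 28 in WT and 33 in cKO. In the fixed list of cell-cycle genes, those with a gained peak numbered 3 at −log10 q of at least 10 and 6 at equal list lengths, and those with a lost peak numbered 2 at −log10 q of at least 5, 3 at equal list lengths, 1 with 3000 bp upstream and 2 when 50 percent of the shorter peak had to overlap. Stricter lists remove the partner of a peak as well as the peak. Depth limits what is absent: a WT summit under 13 fragments is not listed.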
